A study of Mus musculus with 14 samples.

Results

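The effect of a Western diet was examined in epididymal fat of mice lacking apolipoprotein E. All arrays that the labels place in the EKO genotype were used, 4 from mice on the Western diet and 4 from mice on normal diet, which makes 8 of the 14 arrays of the series. The labels name the EKO genotype only through apolipoprotein E and give its background as C57BL6/J. The remaining 6 arrays are C57BL6/J wild type (WT), 3 on each diet, and serve here as the comparison. All mice were male and received their diet for 24 weeks from 8 weeks of age. The Western diet contained 42% milk fat according to the labels, which abbreviate it HFD, and they leave the composition of the normal diet (ND) unstated. The labels do not say how Apoe was inactivated or whether the genotypes were littermates, and they call the replicates of a group biological. Values are log2 array signals, on which a difference of 1 is 2-fold, for 19937 genes chosen from 34760 probe sets.

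Apolipoprotein E is carried on lipoprotein remnants and binds the receptors that clear them, so mice without it accumulate cholesterol-rich particles in plasma. Adipocytes and macrophages of fat make the protein themselves. The epididymal pad is a visceral depot that, in wild-type mice on diets rich in fat, is known to gain macrophages around large or dying adipocytes. The comparison asks which genes of this pad differed between diets when apolipoprotein E was absent. In whole tissue, fewer cells of a type and less RNA per cell cannot be told apart.

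Apoe itself checked the labels. It read 9.46, 9.75, 9.99 and 9.74 in the EKO arrays on normal diet and 10.26, 9.84, 9.92 and 10.12 on the Western diet, and the WT group means were 13.41 and 13.39. Adipocyte genes were bright in every EKO array. Adiponectin (Adipoq), the secreted adipocyte hormone, read 13.52, 13.41, 13.55 and 13.54 on normal diet and 13.51, 13.53, 13.46 and 13.53 on the Western diet, a difference of 0.00 ± 0.08 (log2, ± standard error). The mean signal of 1204 olfactory and vomeronasal receptor probe sets, taken as background, set 5 arrays (6.75 to 6.84) apart from 9 (6.29 to 6.56). Of the EKO arrays, 3 lay in the higher set, namely normal-diet replicate 2 and Western-diet replicates 1 and 3. Background averaged 6.5 ± 0.21 (SD) on normal diet and 6.64 ± 0.18 on the Western diet (n = 4 each, exact two-sided permutation test p = 0.343, smallest possible 0.0286). Background nevertheless marked the main axis of variation among the 8 EKO arrays. The first principal component held 49.8% of their variance and correlated with background at r = 0.94 (Pearson). EKO arrays correlated at 0.981 to 0.996 within a diet and at 0.978 to 0.993 between diets.

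No gene passed the test for diet in EKO fat. Of 19937 genes, 0 (0%) had a Benjamini-Hochberg adjusted p under 0.05 in limma, and the smallest adjusted p was 0.112. Without normal-diet replicate 2 there were 4 calls, and without Western-diet replicate 2 there was 1 (Hsd11b1). Without adjustment, 883 genes (4.43%) lay under a p of 0.05, and of these 326 (1.64%) were higher and 557 (2.79%) lower on the Western diet. In the WT arrays the same model called 1094 genes (5.49%), 636 higher and 458 lower, a count that ran from 415 without WT Western-diet replicate 3 to 1514 without WT Western-diet replicate 1. The 95% confidence interval of the EKO difference lay within 1.5-fold in either direction for 18539 genes (93.0%) and within 2-fold for 19764 (99.1%). The median standard error in EKO was 0.109. The values below therefore describe single genes that did not pass, unless a test is named.

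Among the genes higher on the Western diet, the smallest p belonged to Smyd1, a muscle-enriched histone methyltransferase. It read 7.73, 7.97, 7.94 and 7.57 on normal diet and 8.61, 8.54, 8.61 and 8.84 on the Western diet. All 4 Western-diet arrays lay above all normal-diet arrays, with a difference of 0.85 ± 0.12 (adjusted p = 0.112). The difference was 0.88 with the background set as a block (adjusted p = 0.0578) and 0.94 in the lower set alone (adjusted p = 0.126), and it passed at 0.91 without normal-diet replicate 2 (adjusted p = 0.0377). In WT the Smyd1 difference was -0.26 ± 0.14, and the dependence of its diet effect on genotype passed (adjusted p = 0.0168), except without WT normal-diet replicate 2 or 3 or WT Western-diet replicate 3 (0.0541 to 0.0639). Of 20 measured striated muscle genes, 1 was higher and 1 lower at an unadjusted p under 0.05, against 1.64% and 2.79% of all genes. The mean level of the list ran from 7.76 to 7.99 on normal diet and from 7.84 to 8.06 on the Western diet.

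Cox8b, the muscle and brown-fat form of a cytochrome c oxidase subunit, read 8.99, 9.66, 9.31 and 9.52 on normal diet against 10.03, 10.82, 10.40 and 10.32 on the Western diet. The groups did not overlap, and the difference was 1.02 ± 0.24 (adjusted p = 0.524). WT arrays differed by 0.86 in the same direction (adjusted p = 0.0918). Uncoupling protein 1 (Ucp1), which defines thermogenic fat, stayed between 6.54 and 6.76 in all 8 EKO arrays, below the highest background.

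Further genes with small p on the higher side were Sgms2, Acad11, Hsdl2, Aldh3b2 and Scd4. Sgms2, which makes sphingomyelin at the cell surface, read 7.86, 7.99, 7.84 and 8.09 on normal diet and 8.31, 8.33, 8.46 and 8.36 on the Western diet, apart by 0.42 ± 0.09 (adjusted p = 0.436). Of 21 measured genes of sphingolipid synthesis and breakdown, however, 17 lay below 0, with a median of -0.12. At an unadjusted p under 0.05, 1 was higher and 1 lower, against 1.64% and 2.79% of all genes. The lower gene was Cers6, without overlap (-0.57 ± 0.15, adjusted p = 0.670). Acad11, an acyl-CoA dehydrogenase, read 11.18, 11.56, 11.26 and 11.37 against 11.72, 11.70, 11.66 and 11.90. Its EKO difference of 0.40 ± 0.10 and its WT difference of -0.31 had opposite signs, and the genotype dependence passed (adjusted p = 0.0436). It did not pass with median centring (adjusted p = 0.0945) or when any 1 array was left out (0.0562 to 0.128) other than WT normal-diet replicate 1, WT Western-diet replicate 1 and EKO normal-diet replicate 2. Hsdl2, a hydroxysteroid dehydrogenase-like protein, was higher by 0.34 ± 0.08 and Aldh3b2, an aldehyde dehydrogenase that acts at lipid droplets, by 0.39 ± 0.10, both without overlap and both with WT differences of the same sign (0.26 and 0.36). Scd4, a stearoyl-CoA desaturase, lay near background and was at least 1.15-fold higher.

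The remaining genes of the 12 with the smallest p on the higher side were Dipk2a, Lctl, Smad9, Gprin3 and Eppk1. Dipk2a read 9.03, 8.92, 8.82 and 8.90 on normal diet and 9.31, 9.38, 9.31 and 9.65 on the Western diet (0.49 ± 0.10, adjusted p = 0.385), while its WT difference was -0.01. Lctl, a klotho-family glycosidase-like protein, read 8.43, 8.38, 7.94 and 9.57 against 9.42, 9.91, 9.89 and 9.90. The groups overlapped through normal-diet replicate 4, and the difference was 1.20 ± 0.28 against 2.87 in WT. Gprin3 was higher by 0.55 ± 0.14 in EKO and by 0.73 in WT, where it passed. Smad9, a signal transducer of bone morphogenetic proteins, was higher by 0.31 ± 0.07 and Eppk1, an epithelial plakin, by 0.29 ± 0.07, without overlap. Of these 12 genes, 6 had the same sign in WT and 2 (Lctl and Gprin3) passed there.

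Rnf144b, an E3 ubiquitin ligase, had the smallest p among the genes lower on the Western diet. It read 10.81, 11.51, 11.49 and 10.88 on normal diet and 10.24, 10, 9.94 and 10.42 on the Western diet. All 4 Western-diet arrays lay below all normal-diet arrays, by 1.02 on average (difference -1.02 ± 0.18, adjusted p = 0.324). In WT the gene fell by 1.49 (adjusted p = 0.000843). Alkal2, a ligand of the receptor tyrosine kinases ALK and LTK, read 9.62, 8.83, 9.67 and 9.25 against 8.09, 8.64, 8.59 and 8.23, a difference of -0.95 ± 0.17 (adjusted p = 0.324). Trabd2b, a membrane metalloprotease that inactivates Wnt proteins, read 11.46, 10.30, 11.10 and 11.52 against 9.12, 9.93, 10.10 and 9.69 (-1.38 ± 0.25, adjusted p = 0.377), and its other probe set gave -1.08. Neither passed in WT, and both passed in EKO without normal-diet replicate 2 (adjusted p = 0.0204 each).

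Foxo1, the insulin-restrained transcription factor, read 11.12, 11.27, 11.43 and 11.61 on normal diet and 10.83, 10.84, 10.81 and 11.03 on the Western diet. The groups did not overlap, the difference was -0.48 ± 0.10 (adjusted p = 0.436), and the WT difference of -0.42 passed at an adjusted p of 0.0494. Tfpi, the inhibitor of the tissue factor pathway of coagulation, read 9.76, 9.61, 9.83 and 9.67 against 9.18, 9.27, 9.35 and 9.43 (-0.41 ± 0.09, adjusted p = 0.436). Ccbe1, which promotes processing of the lymphatic growth factor VEGF-C, read 9.27, 9.30, 9.80 and 9.59 against 8.86, 8.91, 8.78 and 9.0 (-0.60 ± 0.12, adjusted p = 0.385). Both were also called lower in WT, Tfpi by -0.37 and Ccbe1 by -0.87.

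The rest of the lower 12 were Fhl5, Pdlim3, Gnb4, Lrrc4c, Auts2 and Nol6. Fhl5, a LIM domain protein, read 9.71, 9.64, 10.12 and 9.95 on normal diet and 9.13, 9.11, 9.08 and 9.18 on the Western diet (-0.73 ± 0.16, adjusted p = 0.461), and Pdlim3, a PDZ and LIM domain protein of the actin cytoskeleton, differed by -0.57 ± 0.11. Both passed in WT (-1.08 and -0.75). Gnb4, a G protein beta subunit, differed by -0.86 ± 0.17, Lrrc4c by -0.62 ± 0.13, Auts2 by -0.46 ± 0.09 and Nol6, a nucleolar protein, by -0.45 ± 0.09. Lrrc4c passed without normal-diet replicate 2 (adjusted p = 0.0377). Of the 12 lower genes, 12 had the same sign in WT, 6 passed there and 0 passed the test of genotype dependence.

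**Figure D1:**
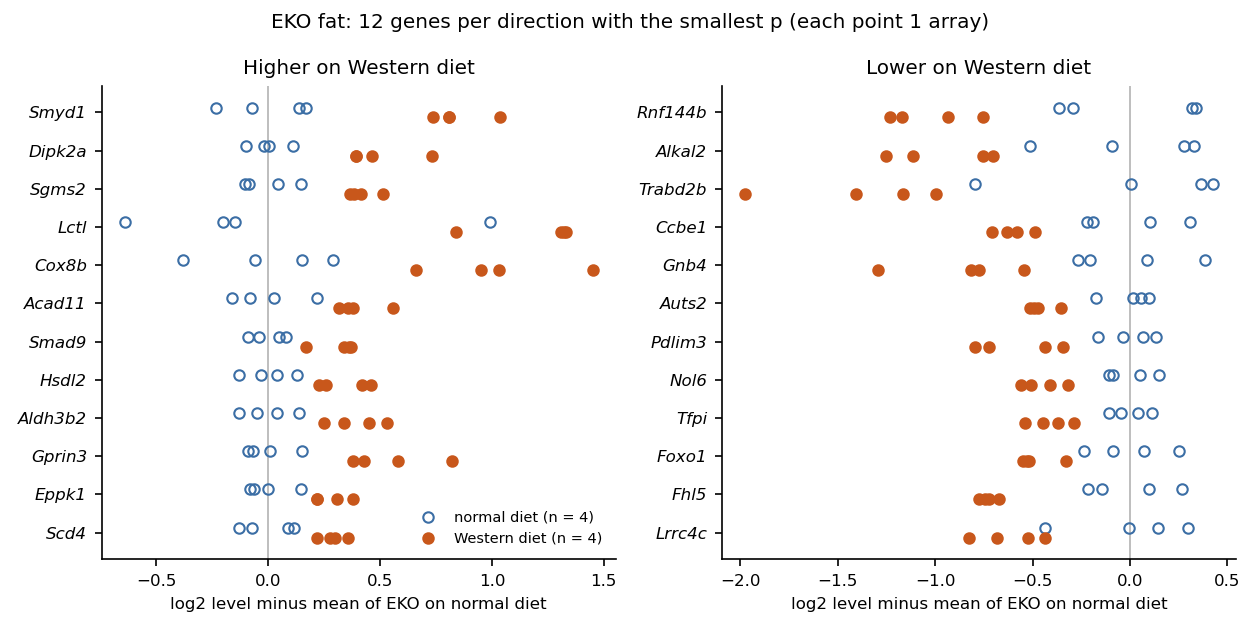
Log2 signal of the 12 genes with the smallest p among those higher and the 12 among those lower on the Western diet, each point 1 EKO array, drawn as its deviation from the gene's mean over the 4 normal-diet arrays. Smyd1 and Rnf144b show groups that do not overlap, while the Lctl groups overlap through 1 normal-diet array, and no gene passed the test over 19937 genes.

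Genes whose diet groups did not overlap numbered 194 (0.973%) on the higher and 317 (1.59%) on the lower side. With 4 arrays per diet and no effect of diet, groups fail to overlap with a probability of 0.0286, both directions together. Absence of overlap alone therefore does not set a gene apart. The largest differences among these genes were few. Cyp2f2, a cytochrome P450 of epithelia, showed the largest, reading 10.71, 13.07, 11.72 and 8.89 on normal diet and 8.17, 8.67, 8.70 and 8.48 on the Western diet (-2.59 ± 0.67, adjusted p = 0.659). The normal-diet arrays themselves ranged more widely than the distance between the groups. Of 13 epididymis and testis genes, 7 were at background, and the mean level of that list ran from 6.90 to 7.11 on normal diet and from 6.97 to 7.16 on the Western diet. Ptges, an inducible prostaglandin E synthase, read 11.35, 10.91, 10.66 and 10.78 against 9.54, 10.61, 10.04 and 10.02 (-0.87 ± 0.19, adjusted p = 0.461) and passed in WT at -1.19. Ccn2, a matricellular target of YAP and TGF-beta signalling, differed by -0.92 ± 0.21 with normal-diet replicate 4 highest at 11.60.

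Among the largest differences on the higher side, Hpgds, a prostaglandin D synthase, read 8.05, 7.83, 7.74 and 8.09 on normal diet and 8.11, 8.79, 8.30 and 8.43 on the Western diet (0.48 ± 0.20, adjusted p = 0.946). Ddah1, which degrades inhibitors of nitric oxide synthase, read 8.73, 8.95, 8.52 and 9.22 against 9.32, 9.25, 9.47 and 9.37 (0.50 ± 0.16, adjusted p = 0.807). Both rose in WT, by 1.59 and 1.52. Zfp980 lay at background on normal diet, and on the Western diet replicate 3 read 7.38 against 6.59 to 6.71 in the others, which lie below the highest background. Over the 883 genes at an unadjusted p under 0.05, 62 differed by 1.5-fold or more and 9 by 2-fold or more. Over all genes 85 (0.426%) differed by 1.5-fold or more.

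Gene groups were read from 40 lists by their counts and medians. Counts at an unadjusted p under 0.05 are to be set against 1.64% of all genes higher and 2.79% lower in EKO. Counts of genes that rose or fell in WT are to be set against 3.19% and 2.30%. Counts of genes that passed the test of genotype dependence are to be set against 0.482% of all genes. At that share a count of 0 in a short list says little. LXR receptors are activated by cholesterol derivatives and induce genes of cholesterol efflux and phospholipid remodelling. Of 16 measured genes of sterol efflux, esterification and LXR control, 12 lay above 0 with a median of 0.18, against a median of 0.01 over all genes, and 5 (Abcg1, Pltp, Lpcat3, Mylip and Npc2) were higher at an unadjusted p under 0.05, a share to be set against 1.64% of all genes. The cholesterol exporter Abcg1 read 9.61, 9.98, 10.06 and 10.68 on normal diet and 11.09, 10.76, 10.60 and 11.06 on the Western diet (0.80 ± 0.21, adjusted p = 0.670). The phospholipid transfer protein Pltp read 11.16, 11.44, 11.54 and 11.91 against 12.16, 12.02, 11.93 and 12.10 (0.54 ± 0.15, adjusted p = 0.717). The groups of Pltp did not overlap, and those of Abcg1 overlapped only through normal-diet replicate 4 and Western-diet replicate 3.

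Lpcat3 and Npc2 lie beyond the naming rule and were named after their values were seen. Lpcat3, which builds polyunsaturated chains into phospholipids, read 11.94, 11.82, 11.93 and 11.79 on normal diet and 12.09, 12.38, 12.43 and 12.20 on the Western diet, also without overlap (0.41 ± 0.12, adjusted p = 0.734). Mylip, a ligase that degrades lipoprotein receptors, differed by 0.25 ± 0.11. Npc2 binds cholesterol inside lysosomes, and its difference was 0.27 ± 0.13. Abca1, the exporter of cholesterol to lipid-poor particles, differed by only 0.02 ± 0.09. Abcg1, Pltp, Lpcat3 and Npc2 also rose in WT, by 1.13, 1.23, 0.99 and 0.81. The median of the list stayed between 0.14 and 0.26 in the alternatives tried. Cholesterol synthesis, which cells reduce when sterol is plentiful, gave 9 of 21 genes above 0 with a median of -0.04 and 0 genes at an unadjusted p under 0.05. In WT, 8 of these 21 genes rose, and 0 of the 21 passed the test of genotype dependence.

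Fatty acid oxidation genes lay mostly above 0. Of 17 measured, 15 lay above 0, as did 52.1% of all genes, with a median of 0.15 that ran from 0.12 to 0.29 in the alternatives tried. At an unadjusted p under 0.05, 3 were higher, against 1.64% of all genes. Hadhb, a subunit of the mitochondrial trifunctional protein, read 11.20, 11.20, 11.35 and 11.21 on normal diet and 11.31, 11.67, 11.45 and 11.51 on the Western diet (0.25 ± 0.09, adjusted p = 0.946). The long-chain dehydrogenase Acadl read 11.15, 11.18, 11.20 and 11.09 against 11.14, 11.54, 11.44 and 11.60 (0.27 ± 0.12). Western-diet replicate 1 lay among the normal-diet arrays for both genes. The respiratory chain gave 12 of 21 genes above 0 with a median of 0.02.

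Genes of fat synthesis went in both directions. Mlxipl, the glucose-responsive factor ChREBP, read 10.94, 10.36, 10.80 and 10.33 on normal diet and 9.85, 10.28, 9.57 and 9.95 on the Western diet, without overlap (-0.70 ± 0.17, adjusted p = 0.563), and fell in WT by 0.80. The fatty acid elongase Elovl5 read 11.09, 11.22, 11.19 and 11.08 against 11.35, 11.47, 11.26 and 11.46 (0.24 ± 0.08, adjusted p = 0.822). Fatty acid synthase (Fasn) differed by -0.12 ± 0.19. Over the 19 genes of the list the median was 0.03, with 2 higher and 2 lower at an unadjusted p under 0.05. Of 10 lipolysis genes, 0 reached it in either direction.

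Of 17 insulin signalling genes, 10 lay below 0, and Foxo1 and Grb14 were lower at an unadjusted p under 0.05. Grb14, an adaptor that restrains the insulin receptor, read 9.49, 9.28, 9.23 and 9.62 on normal diet and 8.56, 8.52, 8.85 and 9.05 on the Western diet, without overlap (-0.66 ± 0.16, adjusted p = 0.547), against 0.22 in WT. Leptin (Lep), the adipocyte hormone that tracks fat mass, read 12.73, 11.78, 12.19 and 13.15 on normal diet and 11.72, 12.21, 12.48 and 12.32 on the Western diet. The Western-diet values lay within or just below the normal-diet range, and the difference was -0.28 ± 0.24 (adjusted p = 0.946) against 0.81 in WT (adjusted p = 0.115). Mest, a gene of adipocyte expansion, read 10.66, 9.27, 10.73 and 12.13 against 11.42, 11.71, 12.64 and 12.36 (1.33 ± 0.53, adjusted p = 0.946). Over 17 adipocyte identity genes the EKO median was -0.01.

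Macrophage genes overlapped between the diets. Adgre1, which encodes the macrophage antigen F4/80, read 9.84, 9.12, 10.10 and 10.51 on normal diet and 9.89, 10.50, 10.24 and 10.23 on the Western diet (0.32 ± 0.23, adjusted p = 0.946). Cd68, a lysosomal protein of macrophages, read 10, 9.81, 10.28 and 11.10 against 10.78, 11.06, 10.59 and 10.82 (0.51 ± 0.22, adjusted p = 0.946). For both genes normal-diet replicate 2 was the lowest EKO array and normal-diet replicate 4 the highest. Mertk, a receptor for dying cells, read 10.40, 10.84, 11.02 and 10.99 against 10.17, 10.46, 10.09 and 10.42 (-0.53 ± 0.14, adjusted p = 0.670) and fell in WT by 0.77.

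Over 20 macrophage genes the EKO median was 0.13, with 1 higher and 1 lower at an unadjusted p under 0.05. The median was -0.04 without normal-diet replicate 2 and 0.33 without normal-diet replicate 4. In WT, 12 of the 20 rose and the median was 0.83, but 0 of the 20 passed the test of genotype dependence. The mean level of the list was 9.84, 9.56, 10.12 and 10.49 in the EKO normal-diet arrays and 9.87, 10.36, 10.11 and 10.13 in the Western-diet arrays. The Western-diet arrays lay inside the range of the normal-diet arrays.

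Lipid-associated macrophages are cells that take up lipid from adipocytes. Of 17 genes that mark them, 2 were higher at an unadjusted p under 0.05 in EKO, with a median of 0.19, whereas 14 rose in WT, with a median of 1.14. The EKO median was 0.05 without normal-diet replicate 3 and 0.32 without replicate 4. The droplet coat protein Plin2 read 12.11, 11.65, 11.85 and 12.18 on normal diet and 12.19, 12.26, 12.28 and 12.27 on the Western diet (0.30 ± 0.11, adjusted p = 0.946), and rose in WT by 1.09. Fabp5, a fatty acid carrier, read 10.24, 10.43, 10.39 and 10.36 against 10.10, 11.04, 11.29 and 11.01 (0.51 ± 0.21, adjusted p = 0.946). Trem2, the lipid-sensing receptor of these cells, differed by -0.01 ± 0.21. The integrin Itgax (CD11c) read 7.66, 7.97, 7.79 and 8.46 against 8.09, 8.01, 8.12 and 7.91 (0.06 ± 0.14). Itgax rose by 2.15 in WT and its genotype dependence passed (adjusted p = 0.000604), as it did for 4 of the 17 genes. The others were Atp6v0d2, Ctsk and Lipa, each of which lost the call without at least 1 array.

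Other immune groups gave small medians in EKO. These were 0.03 for resident macrophage, 0.02 for cytokine and chemokine, -0.04 for MHC class II, 0.06 for interferon-induced and 0.06 for T and NK cell genes. The median of 9 B cell genes was -0.055. Of these 9, 2 were lower and 0 higher at an unadjusted p under 0.05, against 2.79% and 1.64% of all genes. Cd79b differed by -0.27 ± 0.10 (adjusted p = 0.946), and Cd79a, at background on the Western diet, was at least 1.05-fold lower. Of 13 neutrophil genes, 11 lay above 0 with a median of 0.15, and 5 were at background. Without the dimmest 50% of genes the median was -0.54, which is the value of the lowest member, Mmp9, and so does not describe the list. At an unadjusted p under 0.05, 2 were higher and 1 lower. S100a9, a calcium-binding protein abundant in neutrophils, read 7.30, 7.37, 7.15 and 7.35 on normal diet and 7.57, 7.90, 7.66 and 7.41 on the Western diet (0.34 ± 0.11, adjusted p = 0.807). The lower gene was the gelatinase Mmp9, named after its values were seen, which read 8.92, 8.82, 9.27 and 8.33 against 8.21, 8.49, 8.15 and 8.33 (-0.54 ± 0.19, adjusted p = 0.946) and fell in WT by 1.31. Haptoglobin (Hp), an acute phase protein that binds haemoglobin, read 12.97, 12.40, 13.26 and 12.84 against 11.66, 12.55, 12.09 and 12.23 (-0.74 ± 0.19, adjusted p = 0.663). Of 13 acute phase and complement genes, 8 lay below 0 with a median of -0.13, which was -0.02 without EKO normal-diet replicate 3.

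Proliferation genes lay close to 0 in EKO. Mki67, the Ki-67 antigen of cycling cells, read 7.79, 7.91, 7.94 and 7.84 on normal diet and 7.92, 7.81, 8.07 and 7.77 on the Western diet (0.02 ± 0.11). It rose in WT by 1.32, and the difference between the genotypes passed (adjusted p = 0.00242). Of 14 proliferation genes, 0 reached an unadjusted p under 0.05 in EKO, with a median of -0.01, and 12 rose in WT, with a median of 0.92. Genotype dependence passed for 2 of the 14, Mki67 and Rrm2, and Rrm2 lost that call in 13 of 14 cases with 1 array left out. Mesothelial genes, which mark the surface lining of the pad, gave an EKO median of 0.01 with 7 of 14 above 0, whereas 11 of the 14 fell in WT. None of the 14 passed the test of genotype dependence.

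Smooth muscle and pericyte genes lay mostly below 0. Of 14 measured, 12 lay below 0 with a median of -0.21, and 7 (Rgs5, Actg2, Tagln, Cnn1, Acta2, Myh11 and Smtn) were lower at an unadjusted p under 0.05, against 2.79% of all genes. Rgs5, a pericyte regulator of G protein signalling, read 11.53, 11.49, 11.63 and 11.89 on normal diet and 10.75, 10.45, 11.09 and 11.10 on the Western diet, without overlap (-0.79 ± 0.18, adjusted p = 0.516). The smooth muscle actin Actg2 read 7.81, 7.87, 7.92 and 8.37 against 7.70, 7.26, 7.64 and 7.65, also without overlap (-0.43 ± 0.14, adjusted p = 0.862). The vascular actin Acta2 read 11.96, 11.96, 12.20 and 12.54 against 11.99, 11.36, 11.77 and 12.09 (-0.37 ± 0.16, adjusted p = 0.946). Tagln differed by -0.44, Cnn1 by -0.37, Myh11 by -0.35 and Smtn by -0.20, genes beyond the naming rule that were singled out after their values were seen.

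The mean level of the smooth muscle list was 9.34, 9.33, 9.47 and 9.70 on normal diet and 9.26, 9.10, 9.14 and 9.40 on the Western diet. Western-diet replicate 4 overlapped the normal-diet range, and the median stayed between -0.27 and -0.15 in the alternatives tried. In WT the median was -0.26 and 1 of the 14 genes fell. A search of RefSeq promoters (GRCm38.p6, 250 bases before to 50 after the start, both strands), made after these values were seen, found the CArG box in 0 of the 10 list genes present in that table and in 1.81% of all its genes. That says only that no exact match lies in these windows.

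Matrix genes lay below 0 in 24 of 27 cases, with a median of -0.17 in EKO against 0.29 in WT. Spon1, a secreted matrix protein, read 9.68, 10.35, 10.21 and 9.28 on normal diet and 9.05, 9.14, 9.08 and 9.09 on the Western diet, without overlap (-0.79 ± 0.19, adjusted p = 0.542). The basement membrane collagen Col15a1 read 11.45, 11.17, 11.39 and 11.71 against 10.64, 11.03, 11.43 and 11.15 (-0.37 ± 0.15, adjusted p = 0.946). Those 2 were the members at an unadjusted p under 0.05. Without normal-diet replicate 4 the median of the list was -0.03. The fibrillar collagen Col1a1 differed by -0.05 ± 0.09.

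Immediate early genes respond within minutes to signals and to handling of tissue. Of 17 immediate early and heat shock genes, 14 lay below 0 with a median of -0.21. The phosphatase Dusp1 read 11.80, 12.26, 11.31 and 11.90 on normal diet and 11.01, 10.48, 11.14 and 11.19 on the Western diet (-0.86 ± 0.25, adjusted p = 0.717), and the transcription factor Egr1 read 9.64, 9.69, 8.57 and 8.93 against 8.5, 8.11, 8.38 and 8.31 (-0.88 ± 0.48, adjusted p = 0.946). Both were among the 8 largest falls picked for groups without overlap, so that trait was fixed by the choice. At an unadjusted p under 0.05, 2 of the 17 were lower (Dusp1 and Hspa1a) and 0 higher, against 2.79% and 1.64% of all genes. For Fos, the first gene of the list, the groups overlapped (-0.23 ± 0.32, adjusted p = 0.948). The median of the list was -0.38 in WT, where its mean level was 8.73, 10.07 and 8.86 on normal diet and 8.80, 8.98 and 9.16 on the Western diet. WT normal-diet replicate 2 thus stood far above the other WT arrays. The labels do not state the time from death to dissection, and an effect of handling was not tested.

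**Figure D2:**
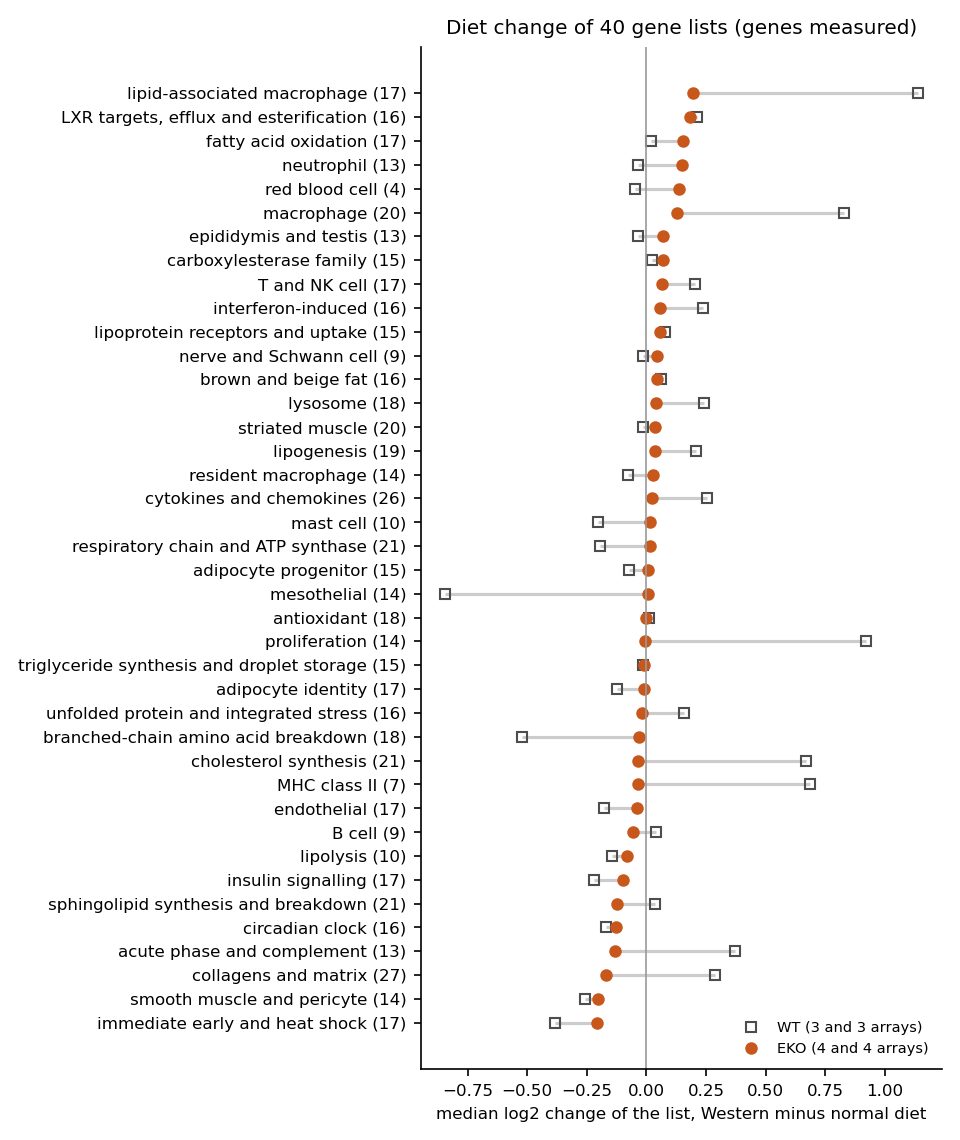
Median log2 difference between the diets of each of 40 gene lists, in EKO and in WT fat. The medians of the macrophage and proliferation lists lie far above 0 in WT (0.83 and 0.92) and near 0 in EKO (0.13 and -0.01), and the mesothelial median is -0.85 in WT and 0.01 in EKO. Single genes passed the test of genotype dependence in 0 of 20 macrophage, 2 of 14 proliferation and 0 of 14 mesothelial cases. Over all genes 0.482% passed.

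**Figure D3:**
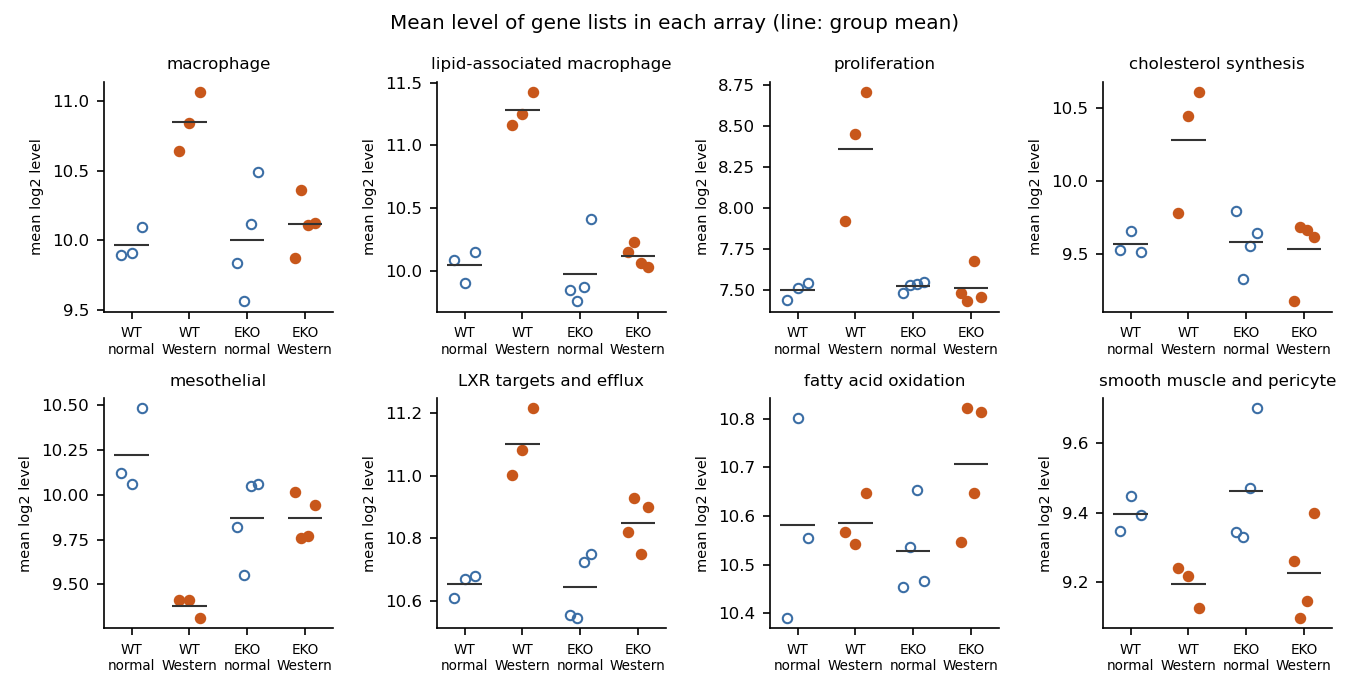
Mean log2 signal of the measured members of 8 gene lists, each point 1 array and each line a group mean, by genotype and diet. The 4 EKO Western-diet arrays lie inside the range of the EKO normal-diet arrays for the macrophage list, and EKO normal-diet replicate 4 is the highest of its group there at 10.49.

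The genes that responded in WT were followed in EKO. Of 62 named genes called in WT, 20 lost that call without at least 1 array. Foxo1 lost it in 12 and Tfpi in 11 of the 14 cases. The WT and EKO contrasts share no arrays. The 636 genes that rose in WT (3.19% of all genes) had a median WT difference of 0.74 and a median EKO difference of 0.05, with quartiles of -0.02 and 0.14. Of them, 436 (68.6%) had a positive EKO difference, 38 had an unadjusted p under 0.05 in the same direction, and for 539 (84.7%) the EKO interval lay within 1.5-fold. The 458 genes that fell in WT (2.30%) had a median of -0.60 in WT and of -0.11 in EKO. Of them, 358 (78.2%) had a negative EKO difference and 98 an unadjusted p under 0.05 in the same direction. These genes were selected on the WT test, so their WT medians are a description. Over the 1094 genes, 72.6% had the same sign in both genotypes, against 51.0% of all genes.

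**Figure D4:**
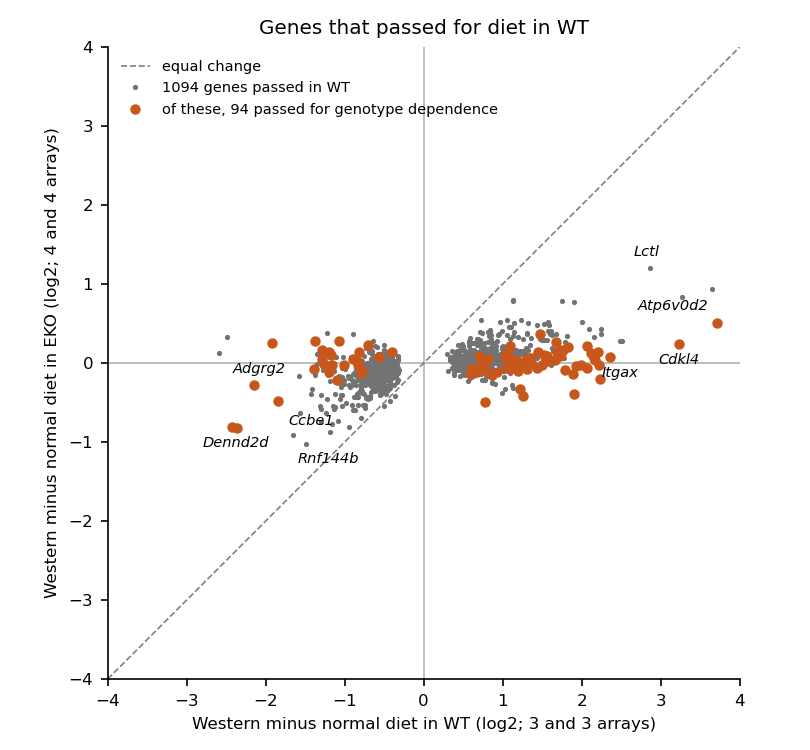
Log2 difference between the diets in EKO (vertical) against WT (horizontal) for the 1094 genes that passed in WT, each point 1 gene. The EKO differences are smaller in size than the WT differences for 1091 genes, in a set selected on WT. Pearson r was 0.58 over this set and 0.23 over all genes. Within the 636 genes that rose in WT it was 0.41, and within the 458 that fell 0.28. Selecting genes at both ends of the WT scale can raise r over the whole set. The same sign is seen for 794, and the 94 genes that passed the test of genotype dependence are marked.

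The mean level of the 636 genes was 8.64, 8.58, 8.68 and 8.93 in the EKO normal-diet arrays and 8.67, 8.84, 8.82 and 8.78 in the EKO Western-diet arrays. In WT it was 8.71, 8.59 and 8.73 on normal diet and 9.32, 9.58 and 9.78 on the Western diet. Every EKO array lay below every WT Western-diet array, and EKO normal-diet replicate 4 was the highest EKO array. The mean of the 458 genes was 9.81, 9.82, 10.02 and 9.85 in EKO on normal diet and 9.70, 9.79, 9.62 and 9.83 on the Western diet. The groups overlapped, and all 8 values lay above the WT Western-diet values of 9.26, 9.25 and 9.16. Both gene sets were selected on the WT arrays, which can widen the gaps to WT, so these gaps are a description.

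**Figure D5:**
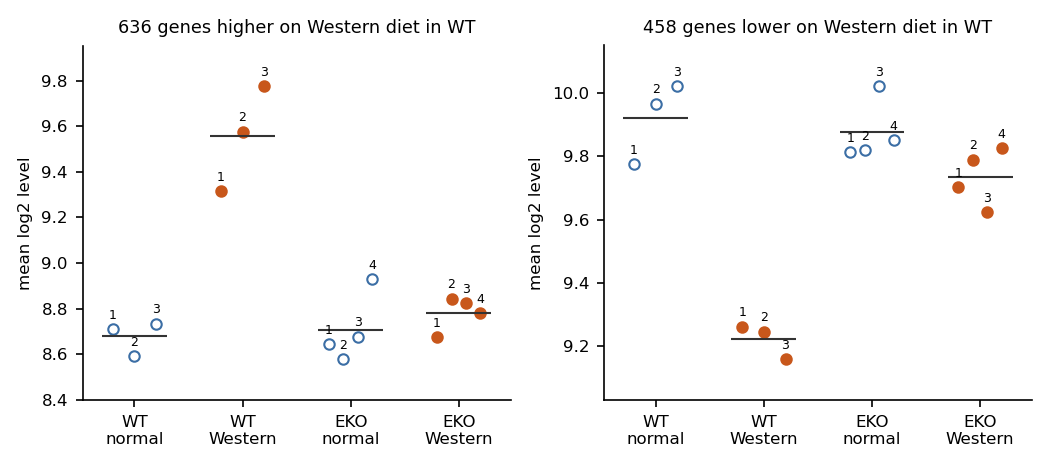
Mean log2 signal per array of the 636 genes that rose and the 458 that fell on the Western diet in WT, by genotype and diet, each point 1 array with its replicate number and each line a group mean. The EKO Western-diet arrays (8.67 to 8.84 and 9.62 to 9.83) lie below the WT Western-diet arrays for the 636 genes and above them for the 458. Both gene sets were selected on the WT arrays, which can widen these gaps.

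The difference between the diet effects was tested directly. Of 19937 genes, 96 (0.482%) passed, 67 of them with an EKO effect below that of WT and 29 with one above it, and 94 of the 96 had passed in WT. The count was 37 without WT normal-diet replicate 2 and 499 without WT Western-diet replicate 1. Mrc2, an endocytic collagen receptor, read 8.83, 8.59, 8.79 and 9.15 in EKO on normal diet and 8.70, 8.64, 8.72 and 8.73 on the Western diet (-0.14 ± 0.11), against a rise of 1.89 in WT (adjusted p for the difference 4.53e-05). Tfr2, a transferrin receptor, read 7.0, 7.21, 6.86 and 6.88 against 7.23, 7.02, 7.01 and 7.21 (0.13 ± 0.10), with a WT rise of 2.11 (adjusted p 4.53e-05). Fam122b differed by -0.06 in EKO and 1.44 in WT, and the interleukin 7 receptor (Il7r) by -0.03 in EKO and 2.22 in WT (adjusted p for the difference 0.000664 and 0.00237). Cdkl4 and Spc25 were at background on both diets in EKO, and their differences passed as well (adjusted p 0.000197 and 0.00021).

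Adgrg2, an adhesion G protein-coupled receptor, fell by 2.15 in WT and read 10.68, 11.16, 11.02 and 10.36 in EKO on normal diet and 10.31, 10.66, 10.58 and 10.54 on the Western diet (-0.28 ± 0.15, adjusted p for the difference 0.00214). Angiotensinogen (Agt) read 12.53, 12.76, 12.95 and 12.33 against 12.39, 12.38, 11.81 and 12.08 (-0.48 ± 0.17) and fell by 1.84 in WT. Dennd2d read 10.01, 10.37, 10.76 and 9.69 against 9.15, 9.82, 9.06 and 9.58 (-0.81 ± 0.21) and fell by 2.43 in WT. The carboxylesterase Ces1f differed by 0.25 ± 0.26 in EKO and -1.92 in WT, and its relative Ces1d, a lipase of fat, by 0.05 ± 0.12 and -1.29. All 5 genes passed the test of the difference. Leaving out 1 array ended the call of Agt in 9 of 14 cases, of Ces1f in 8 and of Dennd2d in 7 (adjusted p up to 0.128), among them WT normal-diet replicates 2 and 3 and WT Western-diet replicates 2 and 3 for each, and of Adgrg2 and Ces1d in 0. Median centring ended it for Agt (0.0632) and Dennd2d (0.0708). Tst, a mitochondrial sulfurtransferase, did not (adjusted p = 0.708), with -0.91 ± 0.36 in EKO and -1.65 in WT. Acsm3, Fam13a and Slc43a1 differed by 0.33, 0.13 and -0.17 in EKO with overlapping groups and fell in WT, and did not pass that test either. Fam13a passed it without WT Western-diet replicate 1 (adjusted p = 0.0106) or EKO normal-diet replicate 2 (0.0227), and Acsm3 without WT normal-diet replicate 1 (0.0434).

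Among the genes with the largest WT rises, Atp6v0d2, which encodes part of the vacuolar proton pump, read 7.10, 7.08, 7.30 and 9.02 in EKO on normal diet and 8.99, 8.34, 7.74 and 7.46 on the Western diet (0.51 ± 0.40), against 3.71 in WT (adjusted p for the difference 0.0353). That call was lost without any of 7 single arrays (adjusted p 0.0565 to 0.124), namely WT normal-diet replicates 2 and 3, WT Western-diet replicates 2 and 3 and EKO Western-diet replicates 2, 3 and 4. The macrophage elastase Mmp12 read 8.51, 8.25, 7.85 and 10.07 against 9.67, 8.96, 8.59 and 8.59 (0.28 ± 0.42). The choline transporter Slc5a7 read 7.30, 7.31, 6.96 and 9.02 against 8.01, 8.32, 8.91 and 8.69 (0.84 ± 0.41). Normal-diet replicate 4 was the highest EKO array for all 3 genes. Lipf, a lipase, read 6.53, 6.37, 6.36 and 7.96 against 7.36, 7.23, 8.44 and 7.93, and was at least 1.54-fold higher on the Western diet, its normal-diet mean being at background. Gpr50 differed by 0.08 ± 0.29 and Sycp3 by 0.28 ± 0.38, with overlap in both.

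Lrg1, a leucine-rich secreted glycoprotein of the acute phase and of vessels, was singled out after its values were seen. Of the 1094 genes called in WT it was the only one with an unadjusted p under 0.05 in the opposite direction in EKO. It read 12.39, 11.97, 12.57 and 12.11 on normal diet and 11.62, 11.80, 11.69 and 11.95 on the Western diet. The groups did not overlap, and the difference was -0.50 ± 0.13 (adjusted p = 0.663). In WT it rose by 0.78 ± 0.15 (adjusted p = 0.0074), and the difference between the genotypes passed (adjusted p = 0.011).

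The genes with small p in EKO were also looked up in WT. Of the 557 genes lower in EKO at an unadjusted p under 0.05, 439 (78.8%) had a negative difference in WT and 98 (17.6%) passed there in the same direction. Of the 326 genes higher, 162 (49.7%) had a positive difference in WT and 38 (11.7%) passed. Over all genes 55.8% lay below 0 and 44.2% above 0 in WT.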

How the data were processed

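Total RNA of the epididymal fat pad was hybridised to Affymetrix whole-transcript arrays. The authors deposited log2 values per probe set, which are RMA output according to the submitters' processing notes, with version and settings not stated. Because RMA equalises brightness between arrays, a shift common to most genes cannot be seen. Deposited values ran from 4.21 to 14.55.

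Of 34760 probe sets, 21640 had 1 gene symbol in the platform annotation, 1321 several and 11799 none. The set with the highest mean stood for a gene, which left 19937 genes. The unnamed sets gave 0 calls for diet in EKO (limma) and 626 at an unadjusted p under 0.05.

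Gene by gene, limma (3.58.1, under R 4.3.3; functions lmFit and eBayes) estimated 1 mean per group from the 14 arrays, with 10 residual degrees of freedom. Contrasts were diet in EKO, diet in WT and their difference. A gene passed at a two-sided Benjamini-Hochberg adjusted p under 0.05. Array number limits the precision. The analysis was tested on simulated data with independent noise for each gene. Such data lack the shared axis of variation seen among the EKO arrays, so the simulation does not cover it.

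Members, lists (40, with 632 of 684 genes measured) and alternatives were chosen with earlier results of these data known. Named genes are Apoe and Lep, the 12 smallest p in each direction, the 8 largest differences per direction without overlap, the 8 largest WT rises and falls, the 8 smallest p for genotype dependence, and in each list its first gene and the 2 members with the smallest p. Predicted genes, small RNAs, antigen receptor segments and chemosensory receptors were not named. A gene whose group mean was at or below 6.84, the highest array background, is given as a bound (at least N-fold), the brighter mean against the dim group's mean of, per array, the higher of 6.84 and the gene's own value. Alternatives changed the arrays fitted, normalization, prior, array weights, low-value filter, probe set rule, background term, threshold or replicate block, or left out each array. Figures used matplotlib 3.10.9.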

Additional observations from a re-analysis of the deposited data

Results flagged for a closer look

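Single arrays lay far from the other 3 of their group in 7 of 112 EKO groups examined by Dixon's ratio at its 95% value, where chance gives about 1 in 20. EKO normal-diet replicate 4 read 9.02 for Atp6v0d2 and 7.96 for Lipf, above the others of its group, and replicate 2 read 7.05 for Gpr50. On the Western diet, replicate 1 was low for Lctl at 9.42, replicate 3 was low for Smad9 at 8.35 and high for Zfp980 at 7.38, and replicate 4 was high for Foxo1 at 11.03.

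The diet effect differed between the genotypes by the test of the difference (limma, adjusted p under 0.05) for 19 of the named genes. The EKO effect minus the WT effect was negative for Atp6v0d2 (-3.20), Cdkl4 (-2.99), Saa3 (-2.44), Gpr50 (-2.28), Il7r (-2.25), Itgax (-2.09), Mrc2 (-2.03), Tfr2 (-1.98), Spc25 (-1.53), Fam122b (-1.50), Mki67 (-1.30) and Rrm2 (-1.02). It was positive for Ces1f (2.17), Adgrg2 (1.87), Dennd2d (1.62), Agt (1.37), Ces1d (1.35), Smyd1 (1.11) and Acad11 (0.72). Saa3, an acute phase protein, differed by -0.21 in EKO and 2.24 in WT, and Rrm2, a ribonucleotide reductase subunit, by -0.15 and 0.87. When each of the 14 arrays was left out in turn, Rrm2 lost the call in 13 cases (adjusted p 0.0547 to 0.113), Acad11 in 11, Gpr50 in 10 (up to 0.128), Agt in 9, Ces1f in 8, Atp6v0d2 and Dennd2d in 7 each, and Saa3 and Smyd1 in 3 each, and the other 10 kept it. Cdkl4 and Spc25 were at background on both diets in EKO and on normal diet in WT, so their values depend on the background level.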

How the results depend on the processing

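The count for diet in EKO was 0 except for 1 gene with the replicate block (Cox8b), 1 with the background level as covariate (Smyd1), 8 with array weights, and 0 to 4 when an array was left out (4 without EKO normal-diet replicate 2, namely Alkal2, Lrrc4c, Smyd1 and Trabd2b, and 1, Hsd11b1, without EKO Western-diet replicate 2). The count at an unadjusted p under 0.05 ran from 512 to 1948. The count for diet in WT was 479 with only the WT arrays, 1735 with quantile normalization, 5224 with array weights, 2076 with the background covariate, 2007 with the background set as block, 2152 in the lower background set, 1689 at an adjusted p under 0.10, and 415 (without WT Western-diet replicate 3) to 1514 when an array was left out. Genotype dependence gave 159 genes with the replicate block, 285 with quantile normalization, 2338 with array weights, 342 with the covariate, 320 with the background block, 566 in the lower set, 251 at 0.10, and 37 (without WT normal-diet replicate 2) to 499 (without WT Western-diet replicate 1) when an array was left out. The cause of these shifts was not tested. In their deviations from group means, same-numbered EKO arrays correlated at 0.20, -0.59, -0.42 and 0.45, and same-numbered WT arrays at 0.46, 0.19 and 0.01. The main axis of variation among EKO arrays followed background (r = 0.94), so these values cannot decide whether equal numbers mark a pairing. Of 5520 single-gene comparisons with an alternative, 72 lost and 56 gained a call, and 0 called values changed sign. Of 160 single-gene EKO differences, 131 kept their sign in every alternative, and 27 of 40 list medians changed sign in at least 1. The same-sign share of WT genes in EKO ran from 62.1% in the lower set to 80.5% without EKO normal-diet replicate 4.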
